A study of Mus musculus with 20 samples.

Results

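The Cyp4f family of the mouse hippocampus was followed in RNA-seq counts of adult offspring after gestational exposure to nPM, a nanosized fraction of urban particulate matter. Members were chosen by their symbols in the deposited gene map. The 7 members are Cyp4f13, Cyp4f14, Cyp4f15, Cyp4f16, Cyp4f17, Cyp4f18 and Cyp4f39, of 48709 genes counted. Cyp4f15 was selected on its lower counts in nPM samples, so its nPM values are given as a description, with no test. There were 20 samples, with 5 in each of control female, nPM female, control male and nPM male. All mice were C57BL/6 offspring (bred from C57BL/6J mice, per the study's methods), and the right hippocampus had been taken after perfusion. The nPM dams inhaled 300 μg/m3 nPM for 5 h/day on 3 days/week from gestational day 2, and the control dams inhaled filtered air. The concentration is in μg/m3 in the study's methods, while the sample labels write mg/m3. Females were 17.71 to 18.29 weeks old and males 18.57 to 19.14 weeks. Per the study's methods, male mice had also been injected with EdU, a thymidine analogue, before tissue collection, and all animals are said to have been injected, so whether females received it is not clear. The litter of each sample is not stated in the sources used here, so p-values measure the spread between samples, and samples of a group may share a litter.

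Cyp4f enzymes are cytochrome P450s of the endoplasmic reticulum. They add a hydroxyl group at or near the far end of fatty acid chains, a step that inactivates leukotriene B4 and turns arachidonic acid into 20-HETE, a vasoactive lipid. Electrons reach them from P450 reductase, with cytochrome b5 as a helper, and a heme held by a conserved cysteine carries out the reaction. Cyp4f14 and Cyp4f18 are known leukotriene B4 hydroxylases, the latter of neutrophils, and Cyp4f39 is the counterpart of a human enzyme that makes the long-chain lipids of the skin barrier. In the brain the family is of interest because leukotrienes and 20-HETE act on vessels and on inflammation.

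The members share more than their name. On mm10, 6 of the 7 lie on chromosome 17 within 478.9 kb. Cyp4f15 (ENSMUSG00000073424.9) is at chr17:32685627-32703352 on the plus strand. Cyp4f39, Cyp4f17 and Cyp4f16 lie before it on the same strand, and Cyp4f14 and Cyp4f13 lie after it on the minus strand. Cyp4f18 is on chromosome 8, at chr8:71988482-72009626. None of the 6 genes on chromosome 17 overlaps another gene in the deposited gene map, while Cyp4f18 overlaps 1, Zfp961. The first bases of the last coding exon are shown because they hold the codon for the heme-binding cysteine (TGC, in capitals) and show how alike the genes are at the catalytic site. They are printed on the coding strand from the GENCODE M21 transcripts of mm10, for Cyp4f15, for the 2 genes with the fewest differences from it, and for the most distant member. The stretches are in exon 13 at chr17:32702789-32702848 (Cyp4f15), exon 12 at chr17:32905619-32905678 (Cyp4f14), exon 13 at chr17:32551056-32551115 (Cyp4f16) and exon 12 at chr17:32492302-32492361 (Cyp4f39).
Cyp4f15: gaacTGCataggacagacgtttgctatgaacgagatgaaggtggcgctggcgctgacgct
Cyp4f14: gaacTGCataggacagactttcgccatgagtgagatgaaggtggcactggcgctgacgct
Cyp4f16: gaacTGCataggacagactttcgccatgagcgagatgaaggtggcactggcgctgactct
Cyp4f39: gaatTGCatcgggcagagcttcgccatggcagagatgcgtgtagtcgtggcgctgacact

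Of these 60 bases, 6 differed from Cyp4f15 in Cyp4f14 and in Cyp4f16, 7 in Cyp4f13 and in Cyp4f17, 8 in Cyp4f18 and 18 in Cyp4f39. All 7 members had the TGC codon at the same place in the exon. Over the whole coding sequence, Cyp4f15 was nearest to Cyp4f14, with 82.12% identical bases. Cyp4f16 and Cyp4f17 were 84.29% identical, and Cyp4f13 was 84.19% identical to Cyp4f17 and 82.54% to Cyp4f16. Cyp4f39 shared 65.5% to 67.62% with the others. Reads from such genes can be hard to place. Of all 50-base windows in its transcripts, Cyp4f15 shared 2.28% with other genes and Cyp4f16 17.4%, while Cyp4f13, Cyp4f14 and Cyp4f17 shared 1.11% to 2.99%. At 100 bases Cyp4f15 shared none and Cyp4f16 shared 5.95%, with Cyp4f17 and Cyp4f37. The read length and the handling of reads with several matches are not given in the sources used here, so the counts of Cyp4f16 and Cyp4f17 are uncertain by an amount that was not tested.

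Total counts per sample were 19092067 to 38663408. Across the libraries, the summed level of 10 choroid plexus markers (Ttr, Kl and others) ran from 35.9 to 8519 CPM (counts scaled to library size by TMM), with none of the 10 at 0 throughout. It was over 1000 CPM in 7 libraries, namely control male 2, 4 and 5, nPM female 1 and 5, and nPM male 2 and 3, and results were also computed without these. Then only control males 1 and 3 remained beside nPM males 1, 4 and 5, and nPM females 2, 3 and 4 beside all control females. Values computed without the 7 libraries therefore rest on few samples. All 9 hippocampal neuron markers, all 9 astrocyte markers and all 6 oligodendrocyte markers were past the count filter. So were all 10 choroid plexus, 7 ependyma, 6 meningeal fibroblast, 6 endothelial and 6 microglia markers. Passing this filter therefore does not show which tissue was taken. In bulk tissue, fewer cells of a type and less RNA per cell cannot be told apart.

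Of the 7 members, 5 passed the filter on low counts, with 29 to 424 counts in a sample, and 2 were near 0. Cyp4f18 had 0 to 2 counts in a sample and 13 in all 20 samples, or 0.0215 CPM (95% Poisson interval 0.0114 to 0.0367, counting error only). Cyp4f39 had 0 or 1 count and 3 in all, or 0.00496 CPM (0.00102 to 0.0145). A count of 0 in a sample allows up to 3 counts, which is 0.0776 to 0.157 CPM at these depths. No difference between groups was detectable for either gene. All 8 markers of neutrophils and other blood leukocytes, the cells in which Cyp4f18 is best known, were below the filter too. Of the 3 other genes with a Cyp4f symbol, Cyp4f37 had 10 counts in all, Cyp4f40 had 15, and the pseudogene Cyp4f41-ps had 69, and all were below the filter.

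Per length, Cyp4f15 had the highest level of the family. Its mean over the 20 samples was 4.16 RPKM ± 0.794 (SD, n = 20), against 2.38 ± 0.612 for Cyp4f13, 2.12 ± 0.277 for Cyp4f14, 1.42 ± 0.309 for Cyp4f16 and 1.35 ± 0.336 for Cyp4f17. Cyp4f15 was above Cyp4f13 in 19 of 20 samples (permutation test of the log2 ratio, two-sided, adjusted p = 0.00012 over 4 neighbouring pairs), and Cyp4f14 was above Cyp4f16 in 19 of 20 (adjusted p = 8e-05). Cyp4f13 and Cyp4f14 were not separated beyond their spread (12 of 20 samples, adjusted p = 0.249), nor were Cyp4f16 and Cyp4f17 (14 of 20, adjusted p = 0.249). Cyp4f15 was thus alone at the top, and Cyp4f14 lay above Cyp4f16. The order within the remaining pairs was not resolved, which does not show equal levels.

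**Figure D1:**
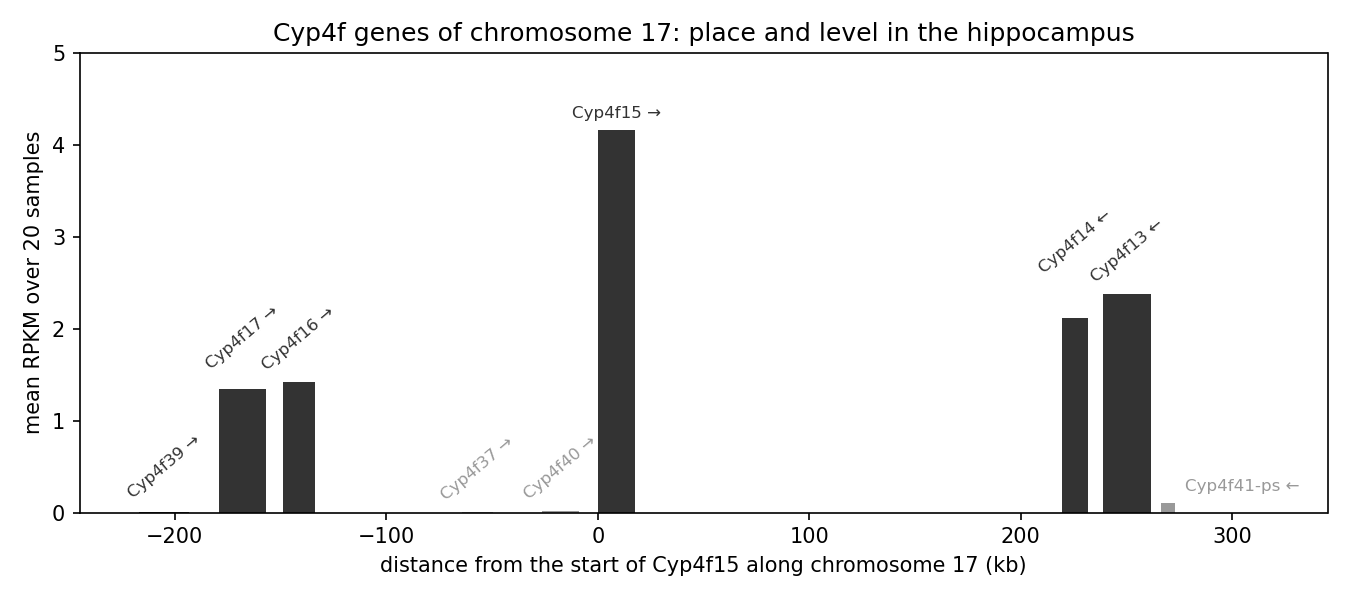
Place and level of the Cyp4f genes of chromosome 17. The x axis gives the distance from the start of Cyp4f15 in kb, bars span each gene, and their height is the mean RPKM over 20 samples. Arrows give the strand, black marks members and grey the other Cyp4f genes. Cyp4f15 stands at 4.16 RPKM, while Cyp4f39 and the grey genes lie between 0.00301 and 0.107.

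Cyp4f15 was lower in nPM females than in every control female. In control females 1 to 5 it was at 11.8, 11.9, 13.0, 11.8 and 11.8 CPM, and in nPM females at 8.36, 8.67, 9.40, 10.4 and 6.66 CPM. The groups did not overlap, and the control females were the tightest of the 4 groups, with a mean of 12.04 CPM ± 0.535 (SD, n = 5) against 8.70 ± 1.39. By SD, control females were also the tightest group for Cyp4f14 and Cyp4f16, but not for Cyp4f13 and Cyp4f17. In control males Cyp4f15 was at 9.31, 8.67, 8.89, 8.33 and 10.5 CPM, and in nPM males at 6.83, 9.67, 8.27, 8.45 and 7.32 CPM. These groups overlapped, with means of 9.14 ± 0.836 and 8.11 ± 1.10. The control females were the only group in which every sample lay above 11 CPM, and the other 3 groups shared the range from 8.33 to 9.67 CPM.

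The fitted log2 fold change of Cyp4f15 for nPM minus control was -0.49 (SE 0.12) in females, or 0.713 times the control level, -0.19 (SE 0.11) in males, or 0.879 times, and -0.34 (SE 0.084) over both sexes, or 0.788 times. These values chose the gene and support nothing by themselves. Among all 19797 genes tested, 28 passed p under 0.005 over both sexes, which is 0.141%, 18 passed in females (0.0909%) and 41 in males (0.207%). No gene passed an adjusted p under 0.05 in any of the 3 limma-voom fits, while 416, 393 and 848 genes had an unadjusted p under 0.05 (over both sexes, in females and in males). All nPM females lay below all control females in 38 of the 19797 genes (0.192%), from which nothing is read for Cyp4f15, as its values chose it. Without the 7 libraries rich in choroid plexus markers, the value was -0.34 in females and -0.28 in males. The lowest nPM female, number 5, was 1 of those 7 libraries. The male value then rested on control males 1 and 3 and nPM males 1, 4 and 5. With so few samples, its change from -0.19 is not read as a difference.

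**Figure D2:**
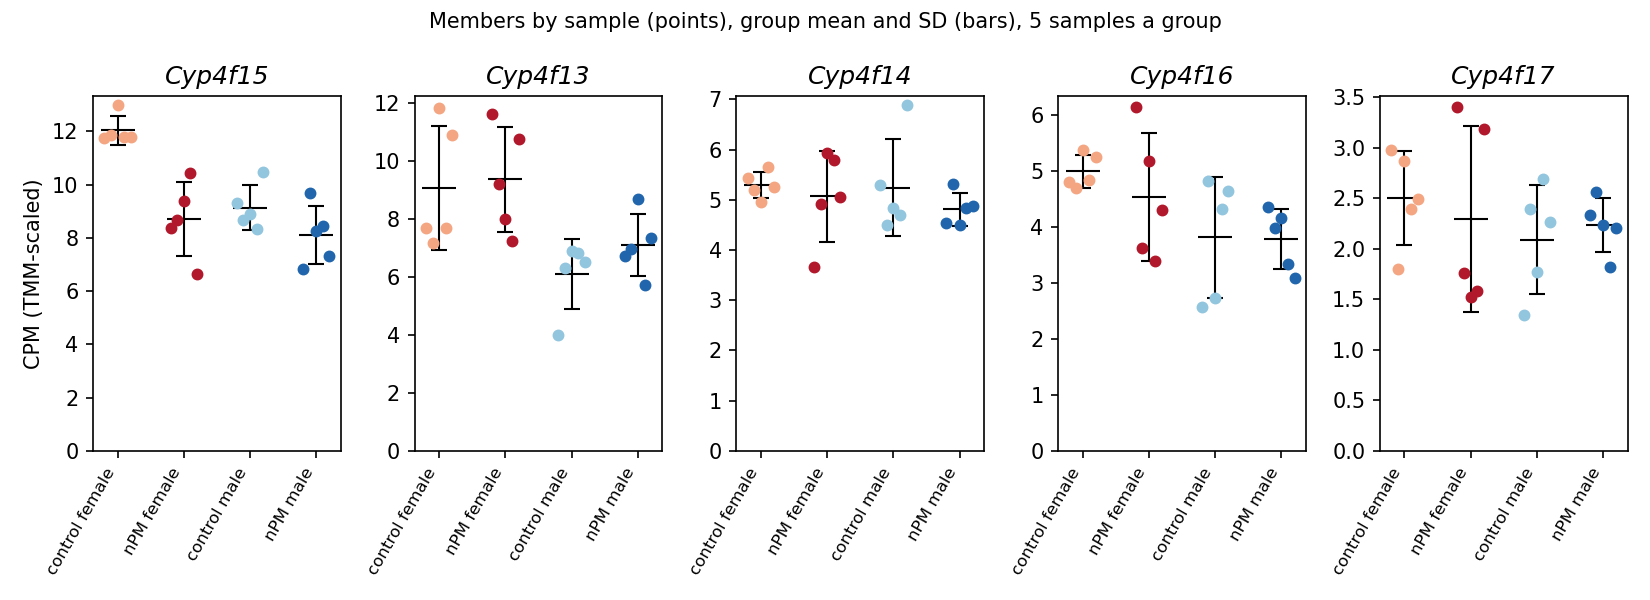
Level of the 5 members past the filter in every sample, in TMM-scaled CPM from 0. Points are samples, horizontal marks the group means and vertical bars the SD of 5 samples a group. Cyp4f15 is at 11.8 to 13.0 CPM in control females and at 6.66 to 10.5 CPM elsewhere, while the exposure groups of the other members overlap within each sex.

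The other 4 members were tested for nPM, and none passed. Cyp4f14, the gene nearest to Cyp4f15 in coding sequence, was at 5.44, 5.19, 4.96, 5.64 and 5.25 CPM in control females and at 3.67, 4.91, 5.93, 5.79 and 5.05 CPM in nPM females. It was at 5.29, 4.50, 4.83, 4.70 and 6.89 CPM in control males and at 4.53, 5.32, 4.50, 4.83 and 4.87 CPM in nPM males. The groups overlapped in both sexes, and 2 samples, nPM female 1 and control male 5, lay apart from the rest. Its log2 fold change over both sexes was -0.11 (95% CI -0.30 to 0.08, limma-voom adjusted p = 0.9998).

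Cyp4f13 was the only tested member with a positive nPM value over both sexes, at 0.15 (95% CI -0.11 to 0.40, limma-voom adjusted p = 0.9998). Its control females were at 7.71, 7.18, 11.8, 7.70 and 10.9 CPM and its nPM females at 11.6, 9.20, 8.01, 7.26 and 10.8 CPM. Its control males were at 3.99, 6.32, 6.90, 6.84 and 6.53 CPM and its nPM males at 6.73, 6.98, 8.68, 5.74 and 7.35 CPM. Both exposure groups overlapped in each sex. Control females 3 and 5 stood apart from the other 3, which lay at 7.18 to 7.71 CPM.

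Cyp4f16 and Cyp4f17, the pair most alike in sequence, had nPM values of small size over both sexes in the fit of all libraries. Cyp4f16 gave -0.07 (95% CI -0.33 to 0.20, limma-voom adjusted p = 0.9998), with 4.70 to 5.36 CPM in control females, 3.38 to 6.14 in nPM females, 2.57 to 4.82 in control males and 3.08 to 4.34 in nPM males. Cyp4f17 gave -0.03 (95% CI -0.37 to 0.31, limma-voom adjusted p = 0.9998), with 1.79 to 2.97 CPM, 1.53 to 3.40 CPM, 1.34 to 2.69 CPM and 1.82 to 2.56 CPM in the same order. In both genes the nPM females had a wider range than the control females. A fall as large as that of Cyp4f15 over both sexes lay inside the interval of Cyp4f17 alone among these 4 genes, and a rise of that size inside that of Cyp4f13 alone. Without the 7 choroid-rich libraries, Cyp4f17 was at -0.17 over both sexes, -0.60 in females and 0.44 in males, and Cyp4f16 at -0.27 in females and 0.42 in males, with no call. The median nPM value over the 5 members was -0.07 on the log2 scale, and over all genes tested -0.01.

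As a share of the summed RPKM of all 7 members, Cyp4f15 held 39.6% ± 2.11 in control females and 33.0% ± 6.03 in nPM females, and 38.2% ± 4.06 in control males and 34.6% ± 3.21 in nPM males (SD, n = 5 each). The share of Cyp4f13 was 20.2% ± 3.30 and 24.2% ± 3.92 in females and 17.4% ± 2.98 and 20.8% ± 2.66 in males, in the same order. The shares carry the chosen difference of Cyp4f15 and are a description.

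Whether the nPM effect differed between the sexes is addressed by the interaction of sex and exposure. For Cyp4f15 the male effect minus the female effect was 0.32 on the log2 scale (SE 0.16), which is built from the values that chose the gene and is given with no test. It was 0.20 without nPM female 5 and 0.06 without the 7 choroid-rich libraries. None of the other 4 members passed p under 0.005, beside 43 of 19797 genes (0.217%). Cyp4f17 was at 0.25, Cyp4f16 at 0.13, Cyp4f13 at 0.12 and Cyp4f14 at -0.02, all with intervals that held 0. Without the choroid-rich libraries these values were 1.04, 0.70, 0.42 and -0.17, and none passed either (limma-voom adjusted p = 0.611, 0.611, 0.711 and 0.797).

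**Figure D3:**
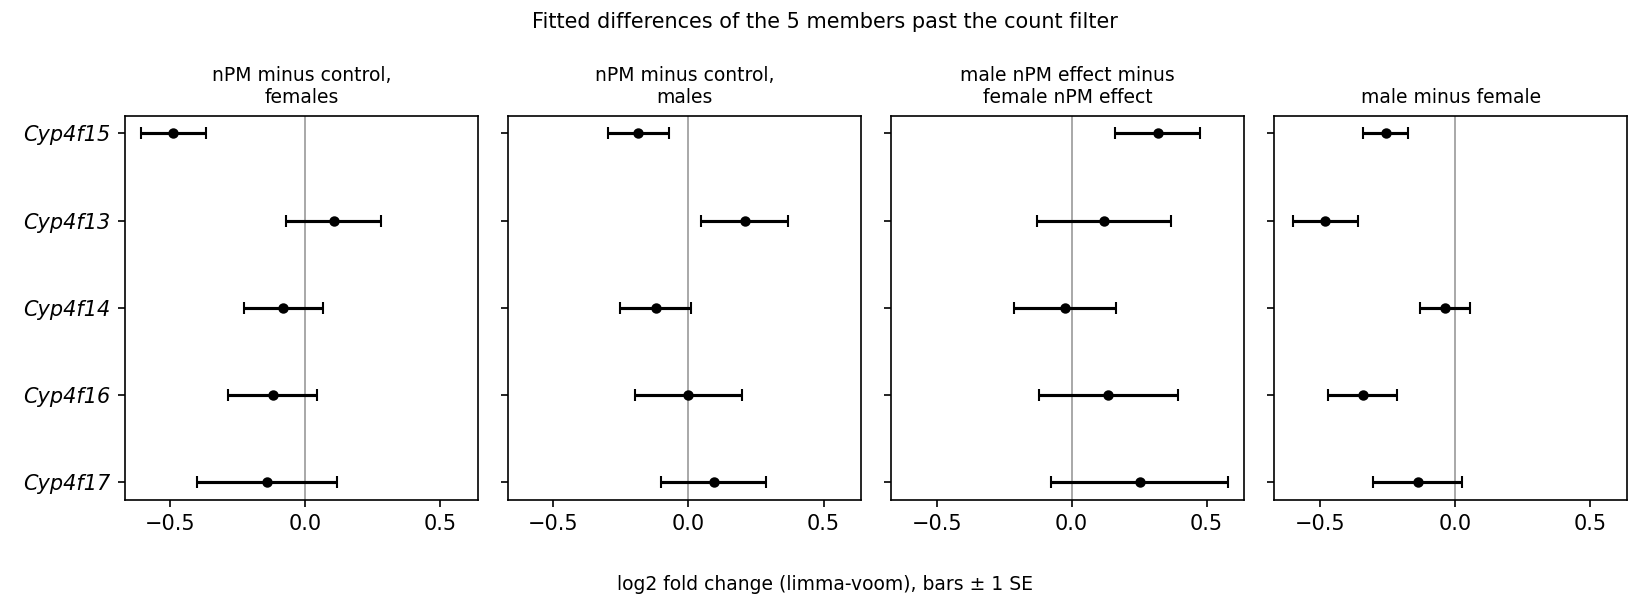
Fitted log2 fold changes of the 5 members past the filter, from limma-voom, with bars of 1 SE either way. Panels give nPM minus control in females and in males, the male minus the female nPM effect, and males minus females. The nPM values of Cyp4f15, which chose it, are -0.49 and -0.19, and in the last panel Cyp4f13, Cyp4f16 and Cyp4f15 lie at -0.48, -0.34 and -0.26.

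Males had lower levels of 3 of the 5 members than females, in the fit of all 20 samples with exposure as a covariate. This must be read against the whole transcriptome, where 8005 of 19797 genes (40.4%) passed an adjusted p under 0.05 and 4280 (21.6%) did so lower in males. Sex and age cannot be told apart in this comparison, as the ages of the sexes did not overlap, nor can EdU if males alone received it. Cell type markers moved with sex too. In males 3 of 9 hippocampal neuron markers were lower and 1 higher, 4 of 9 astrocyte markers were higher and 1 lower, 4 of 6 microglia markers were higher, 3 of 6 endothelial markers were lower and 1 of 6 oligodendrocyte markers was higher. The summed neuron level was 2233 to 3454 CPM in females and 1606 to 2619 CPM in males. Most of it was Camk2a, with means of 2020 CPM in females and 1399 CPM in males, while Calb1 was higher in males (85.3 and 116.7 CPM). The sum is therefore not read as a number of neurons. The summed endothelial level was 146.5 to 202.3 CPM in females and 115.2 to 138.8 CPM in males, without overlap. The summed microglia level was 187.7 to 291.3 CPM in females and 251.3 to 290.1 CPM in males. The summed choroid plexus level was 48.2 to 8519 CPM (median 196) in females and 35.9 to 7523 CPM (median 1956) in males. Of the 10 choroid plexus markers, 0 passed between the sexes. None of these markers was at 0 throughout, and their part in the result was not tested. The median over the 5 members was -0.26 on the log2 scale, beside 0.02 over all genes tested.

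Cyp4f13 had the lowest value, at -0.48 on the log2 scale for males minus females (SE 0.12, limma-voom adjusted p = 0.00357), with a mean of 9.22 CPM in females and 6.61 CPM in males. The lowest female sample was at 7.18 CPM, and 8 of 10 males were below it. Cyp4f15 was at -0.26 (SE 0.084, limma-voom adjusted p = 0.0191), with means of 10.4 CPM and 8.62 CPM. In control samples alone its value was -0.41, given with no test, since these control females also set the nPM value that chose the gene. The mean was 12.04 CPM in control females and 9.14 CPM in control males, but 8.70 and 8.11 CPM in nPM females and males. The call of Cyp4f15 over all samples thus rests in part on the same control females. Whether it holds apart from them was not tested. Cyp4f16 was at -0.34 (SE 0.13, limma-voom adjusted p = 0.0366), with means of 4.76 and 3.80 CPM and overlapping samples. The call of Cyp4f16 was lost with the edgeR test (adjusted p = 0.0522) and on leaving out any of 10 single libraries, and that of Cyp4f13 was just lost without the 7 choroid-rich libraries (log2 value -0.51, adjusted p = 0.0510). Cyp4f17 (-0.14, limma-voom adjusted p = 0.529) and Cyp4f14 (-0.04, limma-voom adjusted p = 0.776) did not pass.

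Across samples, the members did not move as 1 group. Log2 CPM was centred on the 4 group means, and 50 relations were computed in this family, 10 between members and 40 between the 5 members and 8 marker lists, with permutations within groups. Cyp4f13 and Cyp4f17 varied together (Pearson r = 0.71, permutation p = 0.00159, adjusted p = 0.0168; Spearman rho = 0.68, permutation p = 0.00481; n = 20), with r = 0.65 without the 2 samples farthest from the median of Cyp4f13. Cyp4f15 had r = 0.50 with Cyp4f14 (permutation p = 0.0762, adjusted p = 0.238), which did not pass, and r between -0.41 and -0.07 with the others. Cyp4f16 and Cyp4f17 had r = 0.64 (permutation p = 0.0208, adjusted p = 0.0966), which did not pass either.

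Cyp4f16 rose and fell with the summed level of 7 ependyma markers (Foxj1 and others), the ciliated cells that line the ventricles (r = 0.85, permutation p = 0.00054, adjusted p = 0.0168; rho = 0.83, permutation p = 0.000680; n = 20). The relation held without the 2 samples farthest from the median (r = 0.80), and r was 0.84 in females and 0.88 in males. Cyp4f17 had r = 0.74 with the same list (adjusted p = 0.0168) and Cyp4f13 r = 0.64 (adjusted p = 0.0245), or 0.63 and 0.54 without 2 samples, and both passed by rank (adjusted p = 0.0372 each). The same 3 genes followed the 6 oligodendrocyte markers, with r = 0.72, 0.65 and 0.67 (adjusted p = 0.0168, 0.0168 and 0.0434). The value of Cyp4f13 rested in part on 2 samples, with r = 0.43 without them and a rho of 0.51 (adjusted p = 0.102), while Cyp4f16 and Cyp4f17 kept r = 0.65 and 0.54 and passed by rank (adjusted p = 0.0360 and 0.0401). Cyp4f17 followed the choroid plexus list (r = 0.68, adjusted p = 0.0434), with r = 0.62 without 2 samples and a rho of 0.66 that just missed (adjusted p = 0.0518). Cyp4f16 had r = 0.65 with that list (0.55 in females and 0.71 in males), which did not pass (permutation adjusted p = 0.0966). How far the ependyma and choroid plexus lists rise together was not tested, so these relations are not read as particular to either. Neither Cyp4f14 nor Cyp4f15 passed with any of the 8 lists. Cyp4f15 had r = -0.25 with the ependyma list (adjusted p = 0.583), -0.14 with choroid plexus (adjusted p = 0.721) and 0.40 with astrocytes (adjusted p = 0.258). It had r = -0.40 with endothelial cells and -0.39 with meningeal fibroblasts (permutation adjusted p = 0.334 each). Within females r was -0.49, -0.62, 0.52, -0.60 and -0.82 in that order, and within males 0.003, 0.26, 0.29, -0.14 and 0.10. With oligodendrocytes, microglia and neurons it was -0.49, -0.37 and 0.19 in females, and 0.04, 0.50 and 0.28 in males. The values within a sex were not tested. All these points share the library and its dissection, whose part was not tested. The summed ependyma level was 16.7 to 33.4 CPM in control females, 8.08 to 51.2 in nPM females, 15.9 to 66.3 in control males and 21.4 to 55.3 in nPM males, with none of the 7 markers at 0 throughout, and 0 of the 7 passed for nPM or between the sexes.

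**Figure D4:**
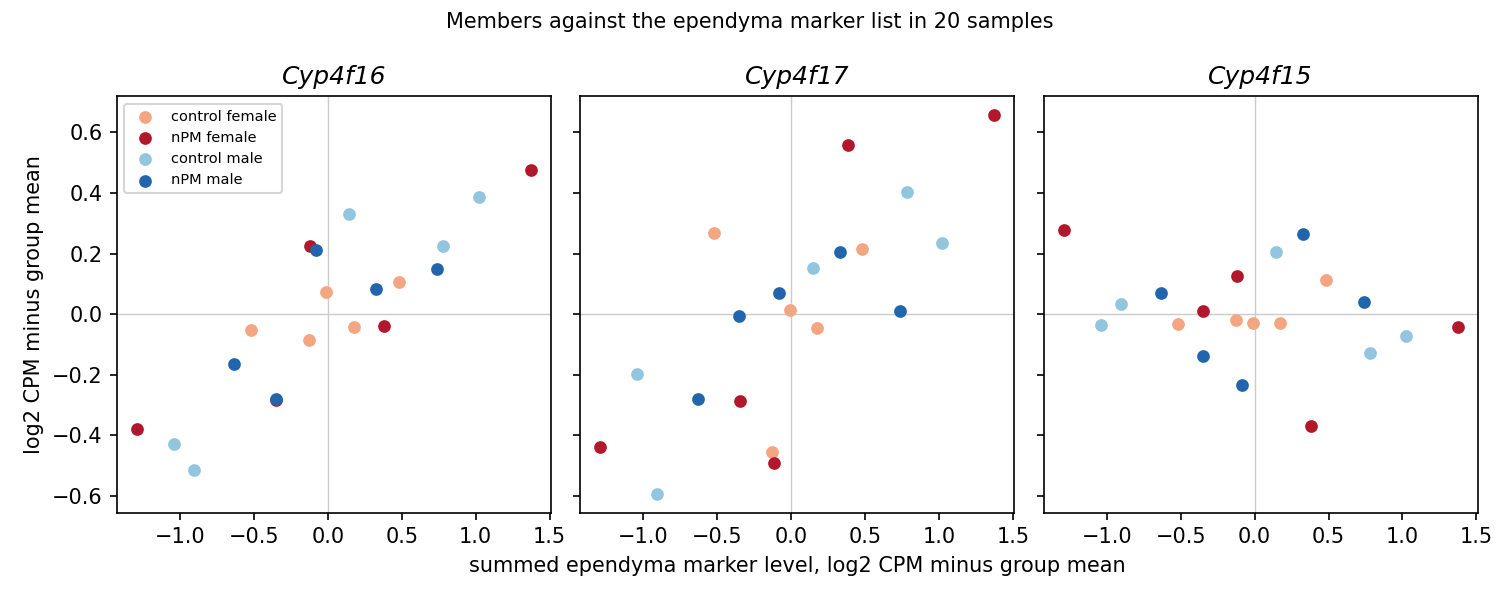
Cyp4f16, Cyp4f17 and Cyp4f15 against the summed ependyma marker level in 20 samples, both as log2 CPM minus the mean of the sample's group. Colours give the 4 groups. Cyp4f16 (r = 0.85) and Cyp4f17 (r = 0.74) climb with the list, and Cyp4f15 (r = -0.25) shows no such slope.

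By the same centred values, the 5 genes most like Cyp4f15 among 19796 were Lmo3 (r = 0.80), a LIM-only transcription cofactor, the unnamed transcript 9330121J05Rik (0.79), Stard7 (0.78), a carrier of phosphatidylcholine, the pseudogene Rps27a-ps2 (0.77) and Lrrn4 (0.76), a leucine-rich repeat membrane protein. These are the highest of many values over 20 samples, given as a description. Without the 2 samples farthest from the median of Cyp4f15, r was 0.60, 0.72, 0.61, 0.64 and 0.74 in the same order. Cyp4f14 ranked 759. Within 100 kb of Cyp4f15, 3 genes passed the filter: the zinc finger genes Zfp871 and Zfp811 and the predicted gene Gm17115. Their nPM values over both sexes were -0.03, -0.06 and -0.17 on the log2 scale (limma-voom adjusted p = 0.9998 each), and none passed.

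The genes that supply, use or surround the Cyp4f reaction were taken from 5 lists, and for nPM over both sexes none of their tested genes passed p under 0.005. Of 17 other Cyp4 genes, 3 passed the filter and 10 had no count in any sample. Cyp4x1, a member rich in brain, was at 3.29 RPKM (nPM value -0.13) and Cyp4v3 at 2.14 RPKM (-0.05). Of 16 leukotriene genes, 12 were tested, and the highest were Mgst3, a glutathione transferase that can form leukotriene C4, at 30.6 RPKM, and Lta4h, which makes leukotriene B4, at 13.1 RPKM. Their nPM values were -0.20 and -0.00.

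All 15 genes of arachidonate release and cyclooxygenase were tested. Ptgds, the prostaglandin D synthase of brain linings and glia, was at 203.1 RPKM with an nPM value of -0.26, and Ptges3, a prostaglandin E synthase and co-chaperone, at 44.4 RPKM with -0.01. Of 16 other oxygenases and epoxide hydrolases, 11 were tested, led by Ephx1, the microsomal epoxide hydrolase, at 13.1 RPKM and Cyp2j9 at 10.6 RPKM. Their nPM values were 0.06 and -0.06. Of the 6 genes of electron supply and downstream steps, Cyb5b and Cyb5a, forms of cytochrome b5, were at 33.5 and 13.2 RPKM with nPM values of -0.03 and -0.08. All limma-voom adjusted p for nPM in these lists were 0.9998. The list medians lay between -0.08 and 0.02 on the log2 scale, beside -0.01 over all genes.

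Between the sexes, 5 of the 6 electron supply and downstream genes were higher in males, read against the 40.4% of all genes that passed in either direction. Cyb5b, Cyb5a, Cyb5r3 (the b5 reductase) and Aldh3a2 (a fatty aldehyde dehydrogenase that acts on the products) were higher by 0.28, 0.24, 0.28 and 0.25 on the log2 scale, with limma-voom adjusted p between 4.68e-05 and 0.00183. The fifth, named after its value was seen, was Gpr75, a receptor for 20-HETE, at 0.16 (limma-voom adjusted p = 0.0221). Por, the P450 reductase, also named after its value was seen, did not pass (-0.06, limma-voom adjusted p = 0.504). The 5 genes that passed went opposite to the 3 members that passed, which were lower in males, as were 21.6% of all genes. Of those members, the call of Cyp4f15 rests in part on the control females that chose it. That of Cyp4f16 was lost on leaving out any of 10 single libraries. In arachidonate release and cyclooxygenase, 4 of 15 were higher in males, namely Ptges (0.45), Hpgd (0.36), Ptges3 (0.27) and Ptges2 (0.25), and 1 was lower, Dagla, which makes the endocannabinoid 2-AG (-0.69). In the leukotriene list 1 of 12 was higher, Mgst3 (0.47), and 1 lower, the receptor gene Cysltr2 (-0.81). Among other Cyp4 genes 1 of 3 passed, Cyp4x1os (0.62), also named after its value was seen, and among other oxygenases 0 of 11 passed. Of the nearby genes, Gm17115 was higher in males (0.57, limma-voom adjusted p = 0.0291).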

How the data were processed

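Hippocampal RNA of 20 mice was measured by RNA-seq. The authors depleted ribosomal RNA, checked reads with FastQC, trimmed adapters with Trimmomatic where needed, aligned to mm10 with HISAT2 and counted genes of Gencode M11 with featureCounts 1.5.0-p3. They deposited whole-number counts, which were used in every test, with gene lengths. They also deposited the RPKM of each gene as their mean over samples, used only as a check of the RPKM computed here. Strand setting and read length are not given in the sources used here. Samples were grouped by the labels. Members, lists and tests were chosen with earlier results of these data known.

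TMM factors (0.958 to 1.06; edgeR 4.0.16) and filterByExpr (minimum count 10, minimum total 15) left 19797 genes. limma-voom 3.58.1 (R 4.3.3, offset 0.5 counts) was fitted with Benjamini-Hochberg adjustment over all of them. Calls were p under 0.005, the study's threshold, for nPM and the interaction, and an adjusted p under 0.05 between the sexes. Totals of 19092067 to 38663408 counts limit low genes by counting error. Levels were compared between genes as RPKM. Relations across samples used 100000 permutations within groups (Python 3.11.15, scipy 1.17.1). Fits were tested on simulated data. Alternatives were the edgeR and DESeq2 1.42.0 tests, RLE factors, no filter, a replicate block, choroid plexus level or age as a covariate, 1 fit of the 4 groups, control samples alone, each sample left out, and, chosen after seeing the data, leaving out the 7 libraries over 1000 CPM of choroid plexus markers. Named genes were all members, other Cyp4f genes, from each list those with p under 0.005 for nPM or sex and the 2 of highest RPKM, the 5 most like Cyp4f15 and those within 100 kb of it.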

Additional observations from a re-analysis of the deposited data

Results flagged for a closer look

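In 20 sets of 5 samples examined (5 members in 4 groups), 2 held a sample far from the other 4, where chance gives about 1 in 20 such sets. Cyp4f15 in control female 3 was at 13.0 CPM, above the 11.8 to 11.9 CPM of the other control females, with the gap at 0.913 of the group's range. It lay in the direction of the difference that chose the gene. Cyp4f13 in control male 1 was at 3.99 CPM, below the 6.32 to 6.90 CPM of the other control males, with the gap at 0.839 of the range. Without that sample, the male minus female value of Cyp4f13 was -0.42 on the log2 scale and its nPM value in males was 0.08 in place of 0.21.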

How the results depend on the processing

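No alternative changed the sign of any Cyp4f15 value. The nPM refits reuse the samples that chose the gene, so the kept sign supports nothing. For nPM, Cyp4f15 ranged from -0.55 to -0.34 in females, -0.28 to -0.13 in males and -0.38 to -0.29 over both sexes, with no test given. Its male minus female value over all samples kept its call on leaving out single libraries and under the other tests, filters and covariates (adjusted p 0.00262 to 0.0471). That call rests in part on the control females that set its nPM value, and none of these alternatives leaves them out as a group. Of 30 same-numbered pairs of samples, 10 had a correlation of deviations over 0.1 (range -0.42 to 0.28). Pairs with different numbers were not computed, so whether the replicate numbers pair the samples was not settled. The number of members under p 0.005 in females, a count that holds the selected Cyp4f15 alone and supports nothing, was 1 and became 0 with the replicate block and without the choroid-rich libraries. With the block, Cyp4f16 lost its sex call (log2 value -0.34, adjusted p = 0.0652). Cyp4f16 also lost it with edgeR (-0.32), with no filter (-0.33, adjusted p = 0.0710), in control samples alone (-0.42, adjusted p = 0.103) and without control female 1, 3, 4 or 5, control male 1 or 3, nPM female 1 or 3, or nPM male 4 or 5 (-0.34 to -0.28). The other signs that turned belonged to values with no call. Without the choroid-rich libraries, Cyp4f14 became 0.0046 over both sexes and 0.077 in females, Cyp4f13 became -0.11 in females and Cyp4f16 became 0.42 in males. Cyp4f16 in males was also 0.0097 with no filter, 0.0066 with choroid plexus as a covariate and 0.00082 in 1 fit of the 4 groups. Leaving out single libraries gave -0.099 to 0.048 for Cyp4f17 over both sexes, -0.32 to 0.0019 in females and -0.044 to 0.20 in males, -0.15 to 0.039 for Cyp4f14 in females and -0.16 to 0.090 in the interaction, -0.12 to 0.087 for Cyp4f16 in males, and -0.015 to 0.20 for Cyp4f13 in the interaction. The cause was not tested.

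Counts over all genes past the threshold moved more. They were 43, 55, 113 and 89 with DESeq2 (both sexes, females, males, interaction) and 71, 75, 104 and 149 with no filter. They were 14, 29 and 135 without the choroid-rich libraries (both sexes, females, interaction), 73 in males with choroid plexus as a covariate, and 66 for the interaction with edgeR. Between the sexes they were 5230 in control samples alone and 3841 without the choroid-rich libraries. Single libraries left out gave 17 (control female 1) to 47 (nPM female 4), 10 (nPM female 5) to 48 (nPM female 4), 23 (nPM male 5) to 78 (nPM male 4) and 24 (control female 3) to 77 (control female 1), in the order of the DESeq2 counts. For Cyp4f18 and Cyp4f39 no difference is detectable at this depth.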
